A study of Mus musculus with 4 samples.

Results

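The 10 genes described here encode NF-κB transcription factors (Nfkb1, Nfkb2, Rela, Relb), their inhibitors and nuclear cofactors (Nfkbia, Nfkbie, Nfkbiz, Bcl3) and 2 regulators of the signal upstream of them (Tnfaip3, Birc3). They were chosen by name, with earlier results of these data known. Each was found by its NCBI gene ID among the 27179 genes counted. The cells were MC38, a mouse colon cancer line labelled wild type (WT), kept as an untreated control or with IFN-γ, and either in normoxia at 20% oxygen or in hypoxia at 1.5% oxygen, the levels given in the study's methods. The study used 5 ng/mL of IFN-γ for 24 h in most of its experiments. Each of the 4 conditions is 1 library, so no difference given here has a replicate check. All libraries come from the same line, which stands for colon cancer only as far as 1 cultured line can.

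Library totals lay between 34302971 and 34537939 counts. In such bulk libraries, fewer cells that transcribe a gene and less RNA per cell cannot be told apart. As a check of the labels, Car9, a HIF target, rose with hypoxia by a log2 change of 2.14 (standard error 0.0885). Defining markers of colon epithelium were low or nearly absent: Epcam, Cdh1, Cdx1, Cdx2 and Krt18 had at most 2 counts in any library, and Krt8 had 48 to 90. Krt19 had 0 to 18, Vil1 7 to 17, Krt20 12 to 22 and Lgals4 13 to 27. Of the mesenchymal markers, Vim had 74838 to 81307 counts and Pdgfra 1077 to 1341, while Col1a1 had 29 to 66, Col1a2 76 to 105 and Dcn 52 to 72. The 8 immune cell markers summed to 89 to 107 counts per library, most of them from Lyz2, and Cd3e, Cd8a and Adgre1 had at most 1 count. Of the sequence words of 31 bases of Krt8 and Lyz2, 32.3% and 32.8% occur in other genes, so their counts are uncertain. In the low range of the table, even counts were in excess. Of the counts from 1 to 19, between 62.6% and 64.3% per library were even, and 1058 to 1091 genes had a count of 2 against 475 to 534 with a count of 1. Such an excess arises where both mates of a read pair are counted, and the counting setting is not given in the sources used here. Counting intervals are therefore also given with every count halved.

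NF-κB proteins are dimers held in the cytoplasm by IκB inhibitors. Signals from TNF, IL-1 and Toll-like receptors activate the IKK kinases, which mark IκB for destruction and let the dimers enter the nucleus. The pathway is known for its feedback: NF-κB induces genes of its own inhibitors, such as Nfkbia, which encodes IκBα, and Tnfaip3, which encodes the ubiquitin-editing enzyme A20. In tumor cells it is linked to inflammatory cytokine output, survival and responses that overlap with those to IFN-γ.

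The κB sequence, the site that NF-κB dimers bind, is shown for 3 feedback genes because it is the shared mark of this circuit. Promoter windows from RefSeq (GRCm38.p6, 250 bases before to 50 after the start) were at hand for 7 of the 10 genes, and Nfkb1, Relb and Nfkbiz are without one. The κB consensus was found on either strand in 5 of the 7 (Bcl3, Nfkb2, Nfkbia, Nfkbie and Tnfaip3), beside 9.55% of the 27025 genes with a window. Counted by window it was 7 of 10, beside 8.46% of all 32851. In the stretches below, read 5′ to 3′ on the strand of the gene, κB matches are in capitals. That of Tnfaip3 lies at chr10:19015411-19015555 on the minus strand and ends at the base before the start. That of Nfkbia lies at chr12:55492648-55492696 on the minus strand and ends at the same place, and that of Nfkbie lies at chr17:45555574-45555623 on the plus strand. The last 2 overlap no annotated gene, and the first overlaps an exon of a longer annotated Tnfaip3 transcript by 8 bases.
Tnfaip3: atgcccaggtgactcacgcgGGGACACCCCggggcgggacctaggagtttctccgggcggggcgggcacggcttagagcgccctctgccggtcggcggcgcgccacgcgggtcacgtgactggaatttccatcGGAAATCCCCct
Nfkbia: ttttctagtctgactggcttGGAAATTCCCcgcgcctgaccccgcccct
Nfkbie: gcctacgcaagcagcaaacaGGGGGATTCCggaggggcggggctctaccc

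The 2 stimuli have sequence marks of their own. The core of the hypoxia response element (ACGTG or GCGTG) was in 5 of the 10 windows, which belong to Tnfaip3, Nfkbie and Nfkb2, and in 43.8% of all windows. No window of the 7 genes held the interferon-stimulated response element (GAAA, any 2 bases, GAAA), which 3.44% of all windows hold. These matches describe the letters and show no binding.

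All 10 genes were expressed, with the lowest count at 137 (Birc3). Per length of exon, in TPM (counts divided by length and scaled to the same total in each library, mean ± SD over the 4 conditions, which are not replicates), Nfkb2 was highest at 146 ± 10.5, and Nfkbia at 114 ± 8.28 and Rela at 98.4 ± 5.76 came next. The ranges of these 3 genes over the libraries did not overlap. Nfkb1 followed at 39.6 ± 2.95, but its merged exons span 12061 bases against 4149 in its longest transcript. With the longest transcript as the length of every gene, Nfkb1 stood at 85.1 TPM, beside Nfkbia at 85.7 and Rela at 82.2. Relb (19.3 ± 2.04) and Bcl3 (18.9 ± 1.55) overlapped in range. Nfkbiz (12.5 ± 3.57) overlapped with Nfkbie (9.60 ± 0.735), and Nfkbie with Tnfaip3 (7.21 ± 2.74). Birc3 was lowest at 2.90 ± 0.396 TPM, 50.3-fold under Nfkb2. The SD of Nfkbiz and Tnfaip3 is large for their level, and these are the 2 genes that changed.

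**Figure D1:**
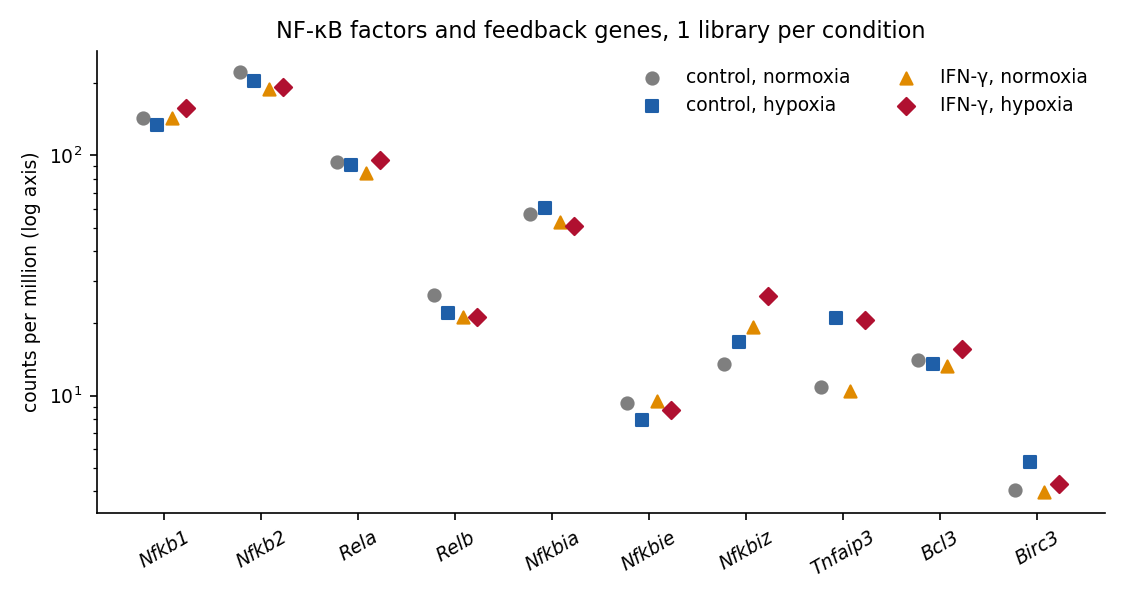
Level of each gene in each library in CPM (counts scaled to the library total) on a log axis, with 1 point per library. For Tnfaip3 the 2 hypoxic libraries (21.1 and 20.7) lie above the 2 normoxic ones (10.8 and 10.5), and for Nfkbiz the levels run from 13.5 in the normoxic control over 16.7 with hypoxia and 19.4 with IFN-γ to the highest point with both stimuli, while the 4 points of most other genes lie close together.

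To ask which of these genes respond to IFN-γ and which to hypoxia, both effects were estimated at once from the 4 libraries with edgeR, as an additive model tested by quasi-likelihood. The estimates thus share every library. All 10 genes passed the filter on low counts. Of the 10, IFN-γ raised 1 (Nfkbiz) at an adjusted p under 0.05, where 4.76% of the 13580 genes tested were raised. It lowered 0, where 1.1% of all genes were lowered. At an unadjusted p under 0.05 the fit had 2 of the 10 higher with IFN-γ, Nfkb1 and Nfkbiz, beside 8.13% of all tested genes, and 2 lower, Nfkb2 and Nfkbia, beside 5.84%. DESeq2 called 1 of the 10 raised and 0 lowered by IFN-γ, beside 348 raised and 17 lowered over all genes. Hypoxia raised 2 (Tnfaip3 and Nfkbiz), where 8.21% of all genes were raised, and lowered 0, where 6.83% were lowered. At an unadjusted p under 0.05, 2 of the 10 were higher with hypoxia, beside 14.1% of all tested genes, and 0 were lower, beside 12.4%. For hypoxia DESeq2 called 1 of the 10 raised and 0 lowered, beside 342 raised and 215 lowered over all genes. The spread in this model comes from departures from additivity, with 1 residual degree of freedom per gene, and is pooled across genes. Ccl5 and Nfkbiz, at mean counts of 617.5 and 651, had similar standard errors for IFN-γ, 0.0971 and 0.0956. Their IFN-γ changes differed between oxygen levels by 0.55 and 0.10 on the log2 scale. The p-values thus rest mainly on the pooled spread and the count, and little on the spread of the gene itself. A true interaction and the difference between cultures cannot be told apart in the pooled spread.

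**Figure D2:**
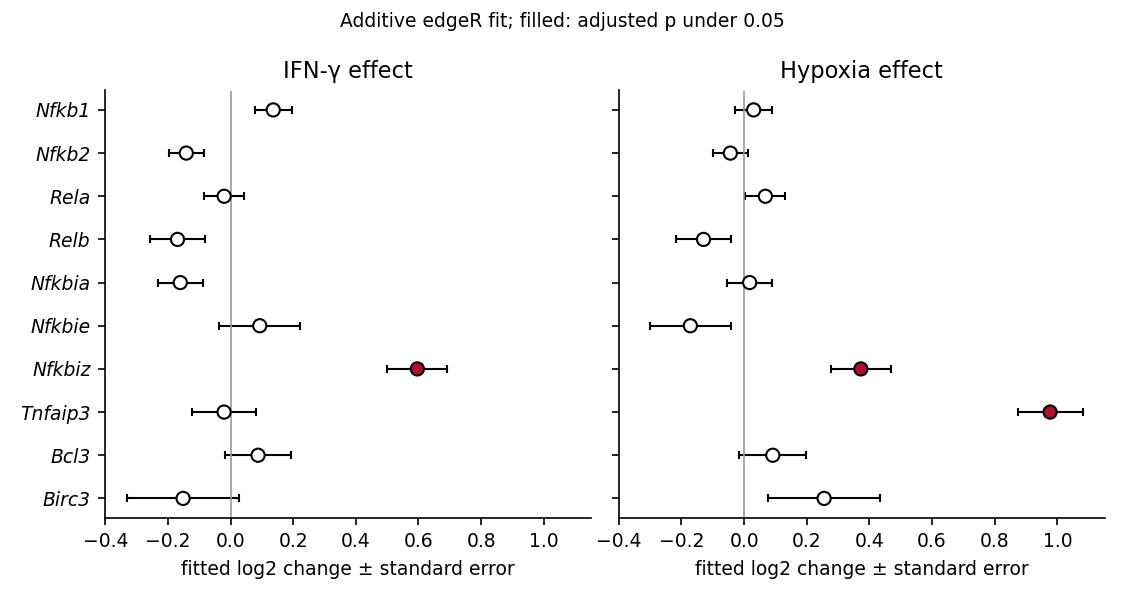
Fitted log2 change of each gene with IFN-γ (left) and with hypoxia (right), with bars of 1 standard error derived from the edgeR test, and filled points for an adjusted p under 0.05. Nfkbiz is filled in both panels (0.60 and 0.37), Tnfaip3 in the hypoxia panel alone (0.98), and the other 8 genes lie between -0.17 and 0.26.

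Tnfaip3 (gene 21929, chr10:19000910-19015410, minus strand) encodes A20, which removes activating ubiquitin chains from signaling proteins and so shuts NF-κB off. It had 371 counts in the normoxic control and 361 in the normoxic IFN-γ library. Under hypoxic conditions it had 727 counts in the control and 712 with IFN-γ. Both hypoxic libraries thus lay well above both normoxic ones, and the 2 libraries of each oxygen level were close to each other. Hypoxia raised it 1.97-fold, or by 0.98 on the log2 scale with a standard error of 0.104. The adjusted p of this edgeR test, after Benjamini-Hochberg correction over all tested genes, was 8.26e-19. The adjusted p stayed under 0.05 in each of 6 alternative fits by edgeR or DESeq2, from 1.98e-09 to 0.0110. In single pairs of libraries the log2 change with hypoxia was 0.97 without IFN-γ (95% counting interval 0.79 to 1.16) and 0.98 with it (0.80 to 1.17). With counts halved these intervals ran from 0.72 to 1.24 and from 0.72 to 1.25. The change with IFN-γ was -0.03 under normoxic (-0.24 to 0.19) and -0.02 under hypoxic conditions (-0.17 to 0.13). No gene in the annotation overlaps its exons, and 0% of its sequence words of 31 bases occur in another gene.

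Nfkbiz (gene 80859, chr16:55811375-55838954, minus strand) encodes IκBζ, an atypical IκB that acts in the nucleus and helps NF-κB switch on a second wave of genes. It had 464 counts in the normoxic control, 577 in the hypoxic control, 669 in the normoxic IFN-γ library and 895 in the library with both stimuli. It was thus lowest without a stimulus, higher with either and highest with both. IFN-γ raised it 1.51-fold, or by 0.60 on the log2 scale (standard error 0.0956), with an adjusted p of 2.09e-08 in edgeR. Hypoxia raised it 1.29-fold, or by 0.37 (standard error 0.0955), with an adjusted p of 0.00154. Nfkbiz was the only one of the 10 genes called for both stimuli.

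The calls for Nfkbiz depended on the model more than that of Tnfaip3. With hypoxia left out of the model the adjusted p for IFN-γ rose to 0.357, while in the other 5 fits the call held. For hypoxia the call was lost with IFN-γ left out of the model (adjusted p = 0.535) and in DESeq2's Wald test (adjusted p = 0.261), and held in the other 4 fits. In single pairs the log2 change with IFN-γ was 0.54 under normoxic (95% counting interval 0.37 to 0.72) and 0.65 under hypoxic conditions (0.49 to 0.80). With counts halved both intervals still excluded 0 (0.29 to 0.79 and 0.43 to 0.87). Against the untreated normoxic library, the library with both stimuli was 1.95-fold higher for Nfkbiz and 1.94-fold higher for Tnfaip3.

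At a fold of at least 1.5 with a counting interval that excludes no change, single pairs called few of the 10 genes. Tnfaip3 was called in the hypoxic pair without IFN-γ (5.75% of all tested genes were called) and in that with IFN-γ (5.85%). Nfkbiz was called for IFN-γ in the hypoxic pair (5.78% of all tested genes), and at 1.46-fold it was under the limit in the normoxic pair, where 0 of the 10 and 6.07% of all genes were called. With both stimuli against neither, these 2 genes were called, beside 8.52% of all tested genes.

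None of the 4 transcription factor genes was called for either stimulus. Nfkb1 (gene 18033, chr3:135584655-135691969, minus strand) encodes p105, the precursor of the DNA-binding subunit p50. It had 4900 counts in the normoxic control, 4627 in the hypoxic control, 4941 in the normoxic IFN-γ library and 5439 in the hypoxic one. The library with both stimuli stood above the other 3, and the hypoxic control was lowest. For IFN-γ the fit gave 0.14 on the log2 scale (standard error 0.0589) and for hypoxia 0.03 (standard error 0.0588), with adjusted p of 0.213 and 0.800 in edgeR.

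Rela (gene 19697, chr19:5637442-5648134, plus strand) encodes p65, the main activating subunit. It had 3231 and 3137 counts in the normoxic and hypoxic control and 2926 and 3303 in the normoxic and hypoxic IFN-γ libraries. The levels of the stimulated and control libraries overlapped for both stimuli, and the fitted log2 changes were -0.02 and 0.07. Both had a standard error of 0.0638, and the adjusted p in edgeR was 0.961 and 0.547.

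The alternative pathway, in which NIK and IKKα act, uses p100 and RelB. Nfkb2 (gene 18034, chr19:46300994-46312400, plus strand), which encodes p100, had 7648 counts in the normoxic control, the highest of the 4 libraries, and 7055 in the hypoxic control. The IFN-γ libraries had 6541 and 6656. Both lay under both controls. The fit gave -0.14 on the log2 scale for IFN-γ with a standard error of 0.0560, and edgeR's adjusted p was 0.146. The exons of Nfkb2 overlap those of Psd and of an annotated noncoding RNA, AC114539.1, both on the other strand. Psd had 1207 to 1597 counts and, like Nfkb2, was lowest in the normoxic IFN-γ library. Whether the counting used the strand is not given in the sources used here, and an effect of the overlap on these counts was not tested. Relb (gene 19698, chr7:19606217-19629438, minus strand) was also highest in the normoxic control, with 904 counts. The hypoxic control had 762, and the IFN-γ libraries had 735 and 729. On the log2 scale the fit gave -0.17 for IFN-γ and -0.13 for hypoxia, both with a standard error of 0.0884, and adjusted p of 0.379 and 0.367. In the normoxic pair alone, Relb was lower with IFN-γ by a log2 change of -0.28 (95% counting interval -0.43 to -0.14), and in the hypoxic pair the change was -0.05 (-0.20 to 0.10).

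Neither classical inhibitor was called for either stimulus. Nfkbia (gene 18035, chr12:55489409-55492647, minus strand) had 1963 counts in the normoxic and 2086 in the hypoxic control, against 1830 and 1758 in the IFN-γ libraries. Both IFN-γ libraries lay under both controls. On the log2 scale the fit gave -0.16 for IFN-γ and 0.02 for hypoxia, each with a standard error of 0.0713. The adjusted p in edgeR was 0.237 and 0.912. Nfkbie (gene 18037, chr17:45555700-45563169, plus strand), which encodes IκBε, a slower-acting inhibitor, had 319 and 274 counts in the controls and 327 and 299 with IFN-γ, under normoxic and hypoxic conditions. The hypoxic library was the lower one in each pair, and the log2 change of -0.17 had an adjusted p of 0.430 (standard error 0.130). For IFN-γ the fit gave 0.09 with an adjusted p of 0.889.

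Bcl3 (gene 12051, chr7:19808462-19822824, minus strand) encodes a nuclear IκB protein that binds p50 and p52 dimers. It had 483 and 466 counts in the controls and 461 and 540 in the IFN-γ libraries, with log2 changes of 0.09 for either stimulus (standard error 0.107 for both) and adjusted p of 0.853 and 0.646 in edgeR. An annotated antisense RNA, Gm16175, overlaps its exons. Birc3 (gene 11796, chr9:7847468-7873205, minus strand) encodes cIAP2, a ubiquitin ligase of the TNF receptor complex. It had 139 counts in the normoxic control, 182 in the hypoxic control, 137 in the normoxic IFN-γ library and 148 in the hypoxic one. It was higher in hypoxia in both pairs, but the log2 change of 0.26 had a standard error of 0.178 and an adjusted p of 0.380 by edgeR. For IFN-γ the fit gave -0.15 with an adjusted p of 0.843. Birc3 is the least counted of the 10 genes, and 11.3% of its words occur in other annotated genes.

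Whether IFN-γ acted differently under hypoxic conditions could only be described, since 4 libraries leave no degree of freedom for an interaction. The IFN-γ change in hypoxia minus that in normoxia was largest for Bcl3 (0.28, 95% counting interval 0.02 to 0.53) and lowest for Birc3 (-0.28, -0.74 to 0.18). It was 0.22 for Nfkb1 (0.14 to 0.30), 0.22 for Rela (0.12 to 0.32), 0.23 for Relb (0.03 to 0.44), 0.14 for Nfkb2 (0.07 to 0.21) and -0.15 for Nfkbia (-0.28 to -0.02). Those of Tnfaip3 (0.01), Nfkbie (0.09) and Nfkbiz (0.10) had intervals that include 0. The interval excluded 0 for 6 of the 10 genes, while it did so for 34.5% of the 10443 genes whose count was 100 or more throughout. With counts halved it was 3 of 10 (Nfkb1, Nfkb2 and Rela) against 20.1%. Counting intervals narrow as counts rise, and the 10 genes were not matched to the others by count. All 10 values lay inside the central 95% of those genes, from -0.36 to 0.40, and the median was 0.12 for the 10 genes and -0.02 for all.

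**Figure D3:**
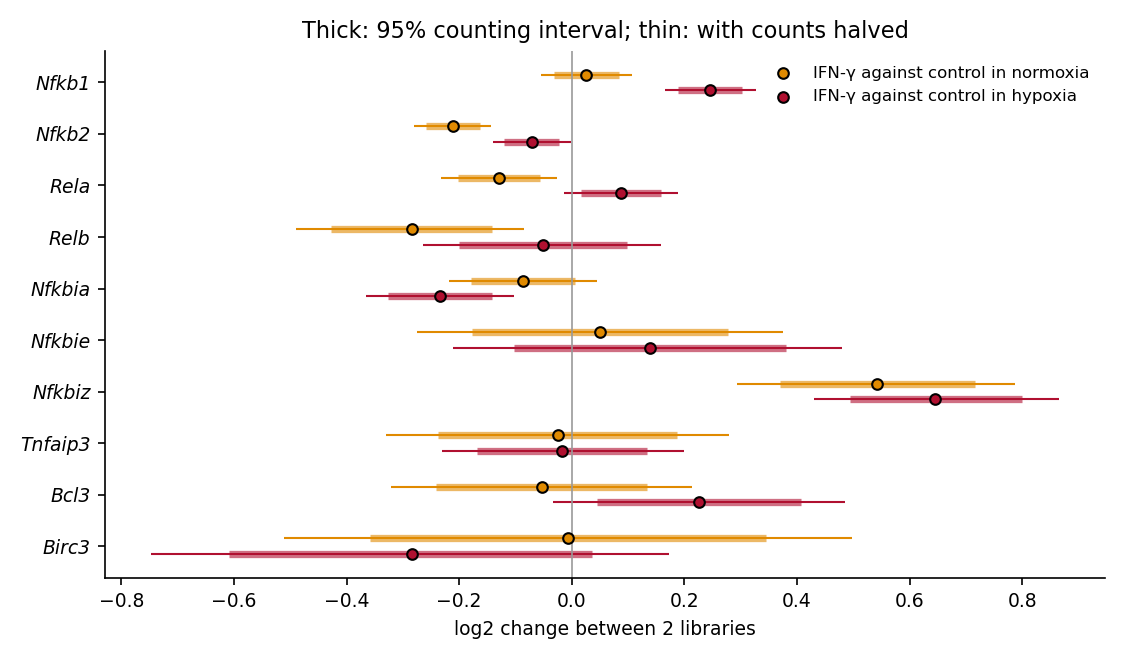
Log2 change between the IFN-γ and the control library of each gene in normoxia and in hypoxia, with 95% counting intervals (thick) and the same with counts halved (thin). Nfkbiz lies right of 0 in both (0.54 and 0.65), and Nfkb1 lies at 0.03 in normoxia and 0.25 in hypoxia.

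Around these 10 genes, 94 others of the pathway were grouped by role, and 78 of them passed the filter on low counts. The lists were drawn up with earlier results of these data known. The calls counted here and below thus describe the lists, and their shares were not tested against all genes. IFN-γ raised 21 and lowered 2 of the 78, and hypoxia raised 14 and lowered 9, by the same test and threshold. Of all tested genes, IFN-γ raised 4.76% and lowered 1.1%, and hypoxia raised 8.21% and lowered 6.83%. Of the 21 raised by IFN-γ, 6 are on a list of targets that IFN-γ also drives directly. The median log2 change of the 78 was 0.10 with IFN-γ and 0.02 with hypoxia, against -0.01 and 0.00 over all tested genes and -0.02 and 0.05 for the 10. Of these 46 calls, 9 held in all 6 alternative fits (for IFN-γ those of Tlr3, Irak2, Rnf31, Irf1, Cxcl10, Psmb9 and Tap1, and for hypoxia those of Ccl2 and Sdc4). That of Cxcl9 held in the 5 that tested it, since it did not pass the stricter filter. A further 12 were lost only with the other stimulus left out of the model, and 23 were lost in another fit too. The hypoxia call of Ccl7 was also lost with IFN-γ left out, and DESeq2 gave it no adjusted p.

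Most ligands that start the signal had few or no counts, with the exception of Tnfsf12 (TWEAK), which had 124 to 148. Il1a had 5 to 21 and Tnfsf13b 18 to 28. Tnf had 0 counts in both controls and 2 and 4 with IFN-γ, and Il1b had 0 in 3 libraries and 2 in the fourth. Of the 10 ligands 5 were at or under 3 counts in every library, too few to tell from none, and neither of the 2 tested (Tnfsf12 and Tnfsf13b) was called. Other genes hold 47.4% of the sequence words of Tnfsf12, so its counts are uncertain.

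Of 12 receptors 10 passed the filter, while Tnfrsf11a, which encodes RANK, had 0 counts throughout and Tnfrsf13c had 5 to 8. IFN-γ raised 4 of the 10 and lowered 0, beside 4.76% raised and 1.1% lowered of all tested genes. Tlr3, a sensor of double-stranded RNA, had 454 counts in the normoxic and 576 in the hypoxic control, and 1049 and 1197 in the matching IFN-γ libraries. The log2 change of 1.14 had a standard error of 0.0889 and an adjusted p of 1.52e-35 in edgeR. The TNF receptor genes Tnfrsf1b and Tnfrsf1a rose by 0.50 and 0.26, and Cd40 by 0.60. Cd40 passed in only 1 of the 6 alternative fits, and Tnfrsf1a in 4. Hypoxia raised Tlr3 by 0.26 and lowered Tnfrsf12a, the TWEAK receptor, by a log2 change of -0.16, both calls that did not hold in every fit.

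Between receptor and IKK, IFN-γ raised 6 of 25 genes and lowered 0, again beside 4.76% and 1.1% of all tested genes. Irak2, a kinase-like adaptor of the IL-1 and Toll-like receptors, rose most, with 161 counts in the normoxic and 131 in the hypoxic control against 589 and 708 with IFN-γ. This was 2.16 on the log2 scale (standard error 0.127), at an adjusted p of 6.26e-62 in edgeR. Rnf31 and Rbck1, which encode HOIP and HOIL-1 of the linear ubiquitin ligase, rose by 0.61 and 0.36, while Sharpin, the third subunit, was not called. Myd88 rose by 0.42, Traf5 by 0.64 and Tbk1 by 0.24. The calls of Traf5 and Tbk1 each passed in only 3 of the 6 alternative fits. Hypoxia raised Ikbkg, which encodes the IKK scaffold NEMO, by 0.30 and Birc2, which encodes cIAP1, by 0.35, and it lowered Myd88 by a log2 change of -0.21. The hypoxia calls of Birc2 and Myd88 each passed in 4 of the 6 alternative fits. The catalytic IKK genes Chuk and Ikbkb were not called for either stimulus.

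Other brakes and relatives moved in part. Cyld, a deubiquitinase that opposes the same signals as A20, rose with IFN-γ by 0.34 and with hypoxia by 0.20. Otud7b, which encodes Cezanne of the A20 family, rose with hypoxia by 0.22, and N4bp1 with IFN-γ by 0.24. Of the 6 alternative fits, the hypoxia call of Cyld passed in 3, and those of Otud7b and N4bp1 in 4 each. The hypoxia call of Nfkbid, given below, also passed in 4. Rel was not called. Hypoxia lowered the IκB relatives Nfkbid (log2 change -0.40, standard error 0.120) and Nfkbib (-0.20, standard error 0.0764), but the call for Nfkbib, at an adjusted p of 0.0491, held in 0 of the 6 alternative fits, which gave 0.0637 to 0.491.

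Targets of NF-κB were called in both directions. Of 26 target genes not on the list of those that IFN-γ also drives directly, 21 were tested. IFN-γ raised 3 (Csf1, Lif and Cflar) and lowered 2 (Cxcl1 and Traf1). Whether IFN-γ acts directly on any of the 26 was not tested. Of all tested genes IFN-γ raised 4.76% and lowered 1.1%. Lif, a cytokine of the gp130 family, had 669 counts in the normoxic and 941 in the hypoxic control, and 1412 and 1554 with IFN-γ. It rose by 0.91 with IFN-γ (standard error 0.0803) and by 0.30 with hypoxia (standard error 0.0800). Traf1 and the neutrophil chemokine gene Cxcl1 were lower with IFN-γ by log2 changes of -0.45 and -0.42. Both calls passed in 4 of the 6 alternative fits. Hypoxia raised 5 of the 21 (Lif, Cflar, Ier3, Sdc4 and Icosl) and lowered 4 (Ccl2, Ccl7, Csf1 and Sod2). Of all tested genes hypoxia raised 8.21% and lowered 6.83%. Both calls of Cflar and the hypoxia calls of Lif and Icosl each passed in 4 of the 6 alternative fits, and that of Sod2 in 3. Sdc4, which encodes the surface proteoglycan syndecan-4, rose by 0.59 (standard error 0.0542, adjusted p = 2.76e-25). Csf1 moved in opposite directions, by 1.05 with IFN-γ and -0.49 with hypoxia. The counts of Sod2 are uncertain, since 26.6% of its words occur elsewhere in the annotation. Of 8 further targets that IFN-γ also drives directly, such as Irf1 and Cxcl10, IFN-γ raised 6, beside 4.76% of all tested genes. This count says little on NF-κB. Hypoxia raised 4 of the 8 (Nos2, Irf1, Psmb9 and Tap1) and lowered 1 (Cxcl10), beside 8.21% and 6.83% of all tested genes. Nos2 rose most with hypoxia, by 1.98 (standard error 0.135). Of the 6 alternative fits, Nos2 and Irf1 passed in 5, Cxcl10 in 4, and Psmb9 and Tap1 in 3.

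**Figure D4:**
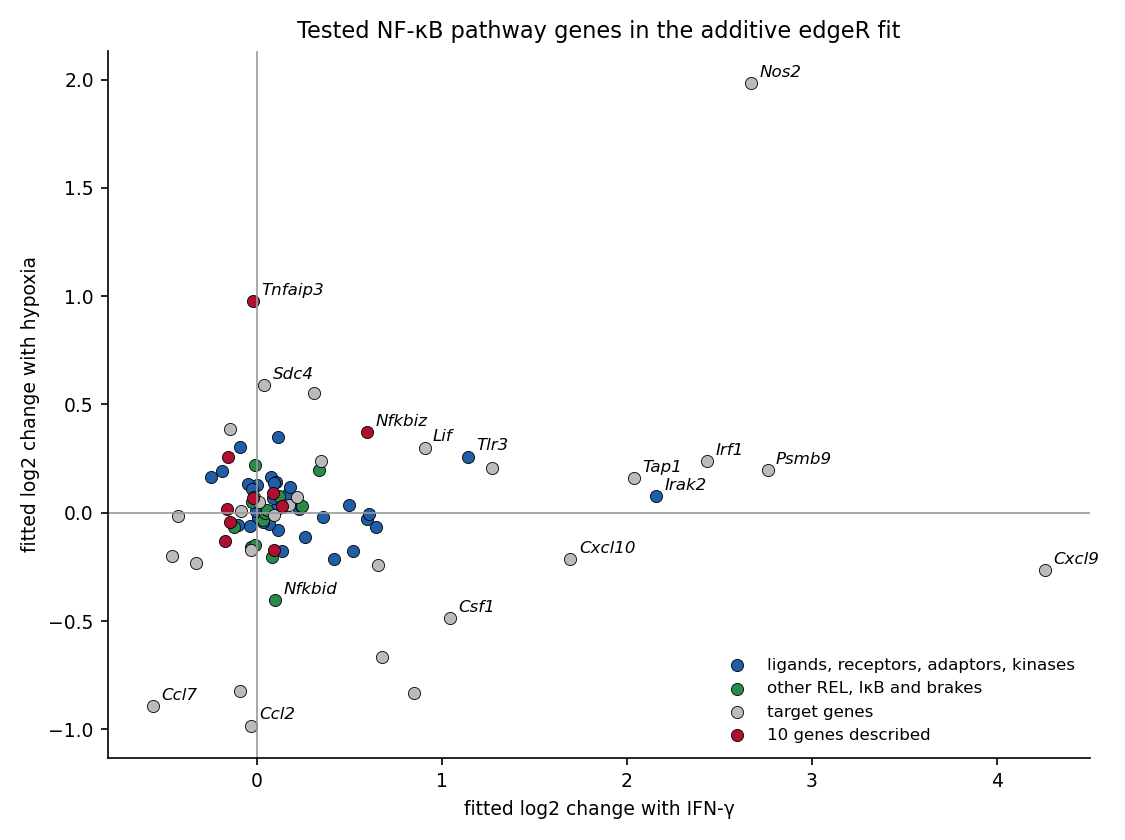
Fitted log2 change with IFN-γ (horizontal) and with hypoxia (vertical) for each tested pathway gene, coloured by role. Tnfaip3 lies on the hypoxia axis (-0.02 and 0.98), Irak2 near the IFN-γ axis (2.16 and 0.08), and Nfkbiz between the axes (0.60 and 0.37).

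Among the 10443 well-counted genes, those whose 3 log2 changes against the untreated normoxic library were most like those of Nfkbiz were Trim14, Crem, Pcgf5, Jak2 and Ripk2. Their Euclidean distances were 0.10 to 0.14 in log2 units over 3 changes from 4 libraries. Ripk2, which encodes the kinase downstream of the NOD receptors, had 765, 912, 1099 and 1347 counts in the order in which those of Nfkbiz were given. Crem, which encodes a regulator of cAMP responses, had 162, 206, 247 and 325. With 4 libraries such a likeness is a description only.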

How the data were processed

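Poly-A RNA of MC38 cells was made into strand-specific libraries and sequenced from both ends with reads of 100 bases on the DNBSEQ platform. The authors had the reads aligned with HISAT2 and deposited raw counts per gene without normalization. The submitters' processing notes name featureCounts and mm10. Versions, annotation and strand setting are not given in the sources used here. Gene symbols came from an NCBI table (GRCm38.p6, the assembly of mm10) and matched 25275 of 27179 genes. Exon lengths and overlaps came from GENCODE M21.

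Counts were analysed as deposited with edgeR 4.0.16 in R 4.3.3: TMM, the default filter (minimum of 10 counts), an additive model of oxygen and IFN-γ, the quasi-likelihood test and Benjamini-Hochberg adjustment at 0.05. TMM factors ran from 0.993 to 1.01. Standard errors were derived from the quasi-likelihood test, as the absolute log2 change divided by the square root of the F statistic. Pair changes used 0.5 added counts and Clopper-Pearson intervals at 95%, differences a normal approximation to Poisson error, and all intervals cover counting error only. The alternatives were DESeq2 1.42.0, its size factors, other filters, a model with 1 stimulus, pairs alone, total counts, 5 added counts, other lengths and stricter motifs. Halving the counts was added after seeing the data. The model fit was tested on simulated data. Protein features were not used here, and a gene planned as a stimulus check and a sequence motif are not reported here.

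All 10 members are named. Of the pathway lists, called genes could be named, with the 2 most counted without a call. Other genes without a call (Sharpin, Ikbkb, Tnf, Il1a, Il1b, Tnfsf12, Tnfsf13b, Tnfrsf11a and Tnfrsf13c) were named after their values were seen. Genes like the most IFN-γ-changed member were taken by distance. Members and lists were chosen with earlier results of these data known.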

Additional observations from a re-analysis of the deposited data

Results flagged for a closer look

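For 5 of the 10 genes, at least 1 stimulus had changes of opposite sign in the 2 backgrounds, each from a single pair of libraries. The share of all genes with such changes was not computed, so the 5 are not set apart from other genes. The differences were not tested. With IFN-γ, Rela changed by -0.13 in normoxia and 0.09 in hypoxia, a difference of 0.22, and Bcl3 by -0.05 and 0.23, a difference of 0.28. With hypoxia, Nfkb1 changed by -0.08 without and 0.14 with IFN-γ (difference 0.22), Nfkb2 by -0.11 and 0.03 (0.14), Nfkbia by 0.09 and -0.06 (-0.15), Rela by -0.04 and 0.18 (0.22), and Bcl3 by -0.05 and 0.23 (0.28). The differences of Rela and Bcl3 are the same in both views, since the same 4 libraries enter. Both counting intervals excluded 0 for Rela with IFN-γ and for Nfkb1 with hypoxia, but not with counts halved. In each other case 1 of the 2 intervals included 0.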

How the results depend on the processing

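No called change of the 10 genes reversed in any alternative fit or single pair. Nfkbiz lost its IFN-γ call with hypoxia left out of the model, so that 0 genes of the 10 were raised, and 1 gene, Tnfaip3, stayed raised by hypoxia in place of 2 with IFN-γ left out, in DESeq2's Wald test and at a minimum of 1.5-fold. Over all genes, calls moved more. With 1 stimulus in the model, 239 genes were raised and 3 lowered by IFN-γ (647 and 149 in the additive fit), and 150 raised and 26 lowered by hypoxia (1115 and 927). DESeq2 called 348 and 17 for IFN-γ and 342 and 215 for hypoxia, and a minimum of 1.5-fold left 350 and 22, and 268 and 30. Genes lowered by IFN-γ numbered 93 with DESeq2's size factors, 71 without a filter and 74 with at least 10 counts in every library. The cause of these shifts was not tested. With counts halved, a choice made after seeing the data, the difference of IFN-γ changes excluded 0 for 3 genes in place of 6. No paired analysis was possible because each condition has 1 library, so that no replicate numbers could be paired. The additive model itself compares libraries within an oxygen level. Depth limits Birc3 most.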

Other observations

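The κB consensus was also looked for in the promoter windows of the other pathway genes. It was in 12 of 19 target genes with a window (63.2%), among them Csf1, Lif, Cxcl1, Sdc4 and Ier3, and in 4 of 8 other brakes, Cyld among them. It was in 3 of 21 adaptors and kinases and 1 of 8 ligands. Over all 27025 genes of the promoter table the share was 9.55%. The target list was drawn up from genes known for NF-κB control, so the share describes the list.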
